A study of Mus musculus with 10 samples.

Results

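The transcripts described here belong to the sterol synthesis pathway and to the SREBP system that controls it. The 8 genes were chosen by symbol and not by their values, though earlier results of these data were known. They are the enzymes *Hmgcs1*, *Idi1*, *Fdps*, *Fdft1* and *Sqle*, the regulator *Insig1*, and *Srebf1* and *Srebf2*, which encode the SREBP transcription factors. All 8 are among the 10431 genes of the table, and all 8 passed the filter on low values. Blood RNA was sequenced from 10 female C57BL/6J mice, which were the 5 largest weight gainers (AIWG-P, for antipsychotic-induced weight gain, prone) and the 5 smallest (AIWG-R, resistant) of 40 mice that received olanzapine in a 45% kcal high-fat diet for 14 days. Both cohorts had the same strain, sex, age at purchase (9 weeks), diet and drug. Per the series' design text, both were moved to the high-fat diet at 10 weeks of age and had 3 days to get used to it. The labels set the cohorts apart only by the weight they gained, so no group without drug or diet is compared. The study's methods place the sequenced blood before the drug, whereas the treatment field of the sample labels names the olanzapine diet and the design text describes blood taken before the diet and again after the drug, so the time point rests on the methods. The AIWG-P mice are P1, P3, P5, P7 and P8, and the AIWG-R mice are R1, R2, R4, R8 and R9.

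Cells make cholesterol from acetyl-CoA through mevalonate, the isoprenoid diphosphates and squalene. When sterols in the membrane of the endoplasmic reticulum are low, the escort protein SCAP carries SREBP to the Golgi apparatus, where proteases release the part that enters the nucleus and switches on the genes of the pathway. INSIG proteins hold SCAP back when sterols are high. Antipsychotic drugs are known to raise SREBP target transcripts in cultured human cells, and that is why the level of these genes before the drug is of interest.

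SREBP acts through short sequences in the promoters of its targets. The 250 bases before the start of *Hmgcs1*, *Srebf2* and *Insig1* are shown because *Hmgcs1* and *Srebf2* are the pair of genes whose levels followed each other most closely over all 10 mice, and *Insig1* is the feedback gene. They come from RefSeq (GRCm38.p6), which holds windows for 5 of the 8 genes, and are written 5′ to 3′ on the strand of the gene, the plus strand for all 3. They lie at chr13:119690101-119690350 (*Hmgcs1*), chr15:82147019-82147268 (*Srebf2*) and chr5:28071162-28071411 (*Insig1*). Capitals mark matches, on either strand, to the sterol regulatory element TCACNCCAC, the E-box CACGTG, the CCAAT box and the GC box GGGCGG, and no matches of different motifs overlap.
Hmgcs1: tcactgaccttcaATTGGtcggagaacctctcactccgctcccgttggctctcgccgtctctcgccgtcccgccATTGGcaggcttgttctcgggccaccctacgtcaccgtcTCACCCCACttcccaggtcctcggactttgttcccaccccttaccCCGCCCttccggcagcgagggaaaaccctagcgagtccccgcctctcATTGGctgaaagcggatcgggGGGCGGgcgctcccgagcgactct
Srebf2: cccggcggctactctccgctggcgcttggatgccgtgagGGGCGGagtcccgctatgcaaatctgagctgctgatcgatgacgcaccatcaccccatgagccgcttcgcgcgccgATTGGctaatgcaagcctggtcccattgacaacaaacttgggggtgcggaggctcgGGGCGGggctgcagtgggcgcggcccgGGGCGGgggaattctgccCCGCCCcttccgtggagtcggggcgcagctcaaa
Insig1: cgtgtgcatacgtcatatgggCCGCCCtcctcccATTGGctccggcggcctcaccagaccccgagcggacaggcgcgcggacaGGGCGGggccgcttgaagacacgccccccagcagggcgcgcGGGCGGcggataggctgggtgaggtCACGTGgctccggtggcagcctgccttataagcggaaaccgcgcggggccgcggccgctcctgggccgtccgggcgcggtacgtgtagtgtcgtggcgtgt
The *Hmgcs1* window holds 1 match to the sterol regulatory element, from base -137 to base -129, counted back from the start, together with 3 CCAAT boxes and 2 GC boxes. The *Srebf2* window holds 1 CCAAT box and 4 GC boxes, and the *Insig1* window 1 E-box, 1 CCAAT box and 3 GC boxes. Of the 5 genes with windows, only *Hmgcs1* held a match to the sterol regulatory element. Only full matches were marked: the stretch tcaccccat in the *Srebf2* window differs from that element in its last base alone. Of 32851 promoter windows of the same length in the mouse genome, 1.05% hold the sterol regulatory element, 6.02% the E-box, 33.8% a CCAAT box and 32.7% a GC box. A match describes letters and says nothing of whether a factor was bound in these mice.

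None of the 8 genes passed the test between AIWG-P and AIWG-R blood. A gene was called at an unadjusted *p* under 0.05 in limma and a fitted level over 25% higher or 20% lower in AIWG-P (0.32 on the log2 scale either way), and 0 of 8 were called, against 7.29% of the 10429 genes tested (4.06% higher and 3.23% lower in AIWG-P). All 8 had an unadjusted *p* above 0.05, and for all 8 the values of the 5 AIWG-P mice overlapped those of the 5 AIWG-R mice, as they did for all but 2.55% of genes. Log2 fold changes (AIWG-P over AIWG-R) ran from -0.13 for *Srebf1* to 0.22 for *Idi1*. Their median size was 0.13, the same as the 0.13 of all genes. The adjusted *p* values from limma, over all genes, lay between 0.530 and 0.956, and no gene of the table had an adjusted *p* under 0.05.

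**Figure D1:**
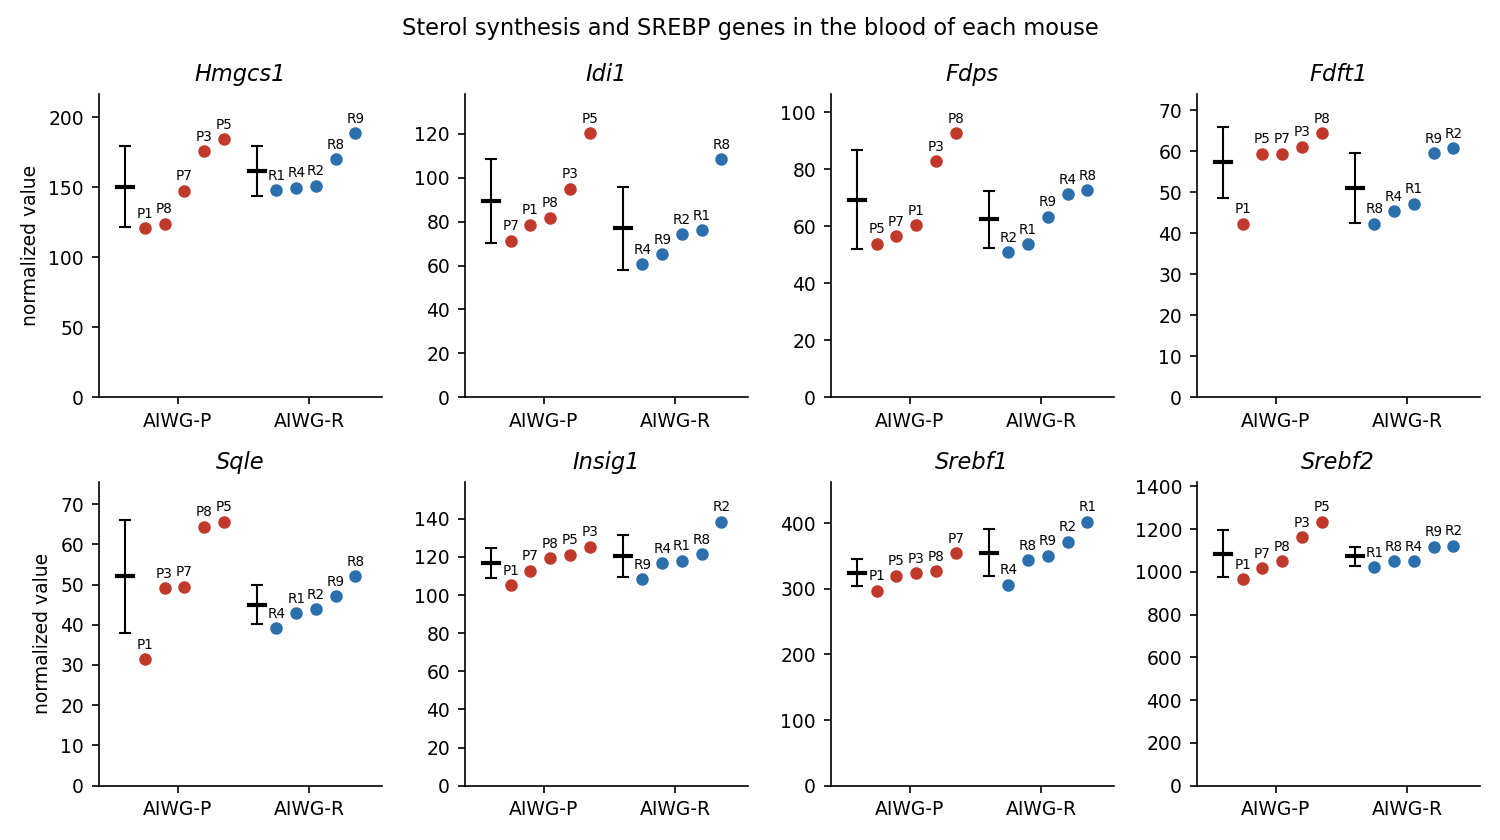
Normalized value (vertical axes, from 0) of 8 genes in each mouse, with AIWG-P in red and AIWG-R in blue; bars to the left of the points give the mean and SD of 5 mice. The cohorts overlap in all 8 genes, and P1 is the lowest mouse in 5 of them.

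How far a difference can be bounded depends on the gene. Values are the authors' normalized signal, and since those of a mouse are whole multiples of 1 step for every gene, they are not divided by transcript length. If a step of the values stood for 1 read, *Sqle* would rest on 26 to 84 reads per mouse and *Srebf2* on 668 to 1783, so counting error alone would give a coefficient of variation of about 14.7% for *Sqle* and 3.09% for *Srebf2*. The observed coefficients within cohorts averaged 18.8% and 7.14%. The largest was 23.0%, for *Idi1*. Their median over the 8 genes was 15.5%, against 14.0% over all genes tested. For *Insig1* the observed coefficient, 7.99%, was under the 9.35% that counting error alone would give on that premise.

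The first enzyme of the group, *Hmgcs1*, encodes the cytosolic synthase that makes HMG-CoA, an early intermediate on the way to mevalonate. Its normalized value was 120.9 in P1, 175.7 in P3, 184.4 in P5, 147.5 in P7 and 124.1 in P8, and 148.1 in R1, 151.1 in R2, 149.7 in R4, 170.3 in R8 and 188.7 in R9. P1, P8 and P7 lay below all AIWG-R mice, P7 narrowly (147.5 against 148.1 in R1), while P3 and P5 lay above all of them except R9. The mean was 150.5 ± 29.01 in AIWG-P against 161.6 ± 17.7 in AIWG-R (SD, n = 5 each). The fold change was 0.92 (95% interval 0.76 to 1.12; exact permutation *p* = 0.429).

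*Idi1* encodes the isomerase that turns isopentenyl diphosphate into dimethylallyl diphosphate. It was at 78.6 in P1, 94.9 in P3, 120.3 in P5, 71.3 in P7 and 81.7 in P8, and at 76.2 in R1, 74.2 in R2, 60.6 in R4, 108.5 in R8 and 65.2 in R9. P5 and R8 stood highest, 1 from each cohort, and 4 of the 5 AIWG-P mice were above the AIWG-R median. With means of 89.4 ± 19.3 and 76.9 ± 18.8 (SD, n = 5 each), its fold change of 1.16 was the largest of the 8 genes (95% interval 0.90 to 1.51; exact permutation *p* = 0.286). Without R8 the log2 fold change was 0.35 and *Idi1* was called (limma *p* = 0.0441), though the exact permutation *p* was 0.0794. With the mean of the red cell markers as a covariate it was -0.05.

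*Fdps* encodes farnesyl diphosphate synthase, whose product feeds both sterol synthesis and protein prenylation. Its values were 60.4 in P1, 82.9 in P3, 53.9 in P5, 56.4 in P7 and 92.7 in P8, and 53.6 in R1, 51.0 in R2, 71.3 in R4, 72.7 in R8 and 63.3 in R9. P8 and P3 were the highest of the 10 mice, and the other 3 AIWG-P mice fell within the AIWG-R range. The means were 69.3 ± 17.4 and 62.4 ± 9.91 (SD, n = 5 each), a fold change of 1.09 (95% interval 0.85 to 1.41; exact permutation *p* = 0.484).

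*Fdft1* encodes squalene synthase, the first enzyme committed to sterols. It stood at 42.3 in P1, 61.1 in P3, 59.4 in P5, 59.4 in P7 and 64.4 in P8, and at 47.2 in R1, 60.8 in R2, 45.4 in R4, 42.3 in R8 and 59.6 in R9. Of the AIWG-P mice 4 were between 59.4 and 64.4 with P1 far below them, while the AIWG-R mice fell into a low trio and a high pair. The fold change was 1.12 (95% interval 0.89 to 1.41; exact permutation *p* = 0.357), from means of 57.3 ± 8.64 and 51.1 ± 8.52 (SD, n = 5 each).

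*Sqle* encodes squalene epoxidase, which makes the epoxide that is closed to the first sterol. Its values were 31.4 in P1, 49.1 in P3, 65.6 in P5, 49.5 in P7 and 64.4 in P8, and 42.9 in R1, 43.8 in R2, 39.2 in R4, 52.1 in R8 and 47.0 in R9. AIWG-P held both the lowest mouse, P1, and the highest, P5, and its SD was 13.9 around a mean of 52.0, against 4.83 around 45.0 in AIWG-R (n = 5 each). The fold change was 1.12 (95% interval 0.85 to 1.48; exact permutation *p* = 0.429). The result turned on P1: without it the log2 fold change was 0.33 and *Sqle* was called (limma *p* = 0.0407; exact permutation *p* = 0.0476).

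Among the regulators, *Insig1*, whose protein retains SCAP in the endoplasmic reticulum and which is itself switched on by SREBP, varied little. It was at 105.2 in P1, 125.5 in P3, 121.1 in P5, 112.8 in P7 and 119.4 in P8, and at 118.0 in R1, 138.6 in R2, 116.7 in R4, 121.5 in R8 and 108.5 in R9. All mice but R2 lay between 105.2 and 125.5. The means were 116.8 ± 7.93 and 120.7 ± 11.1 (SD, n = 5 each), a fold change of 0.97 (95% interval 0.84 to 1.12; exact permutation *p* = 0.563).

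*Srebf1* encodes SREBP-1, the form tied mostly to fatty acid synthesis. Its values were 297.3 in P1, 324.0 in P3, 319.6 in P5, 354.4 in P7 and 326.8 in P8, and 402.3 in R1, 371.9 in R2, 306.5 in R4, 343.8 in R8 and 350.5 in R9. Of the AIWG-P mice only P7 lay above the AIWG-R median, and R4 lay among the AIWG-P mice. The means were 324.4 ± 20.4 in AIWG-P and 355.0 ± 35.4 in AIWG-R (SD, n = 5 each), a fold change of 0.92 (95% interval 0.80 to 1.04; exact permutation *p* = 0.143), the smallest *p* of the 8 genes. Without R4 the exact permutation *p* was 0.0317, and it was 0.0397 when library sizes were taken over genes other than globins, while limma called *Srebf1* in neither setting.

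*Srebf2* encodes SREBP-2, the form tied mostly to sterol synthesis. It was at 967.0 in P1, 1162 in P3, 1235 in P5, 1017 in P7 and 1049 in P8, and at 1022 in R1, 1122 in R2, 1051 in R4, 1051 in R8 and 1118 in R9. The AIWG-R mice spanned a narrow range inside that of the AIWG-P mice, with P1 and P7 below it and P3 and P5 above it. The means were 1086 ± 110.0 and 1073 ± 44.5 (SD, n = 5 each), and the fold change of 1.01 had the tightest interval of the 8 genes on the log2 scale (-0.16 to 0.19; exact permutation *p* = 0.825).

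**Figure D2:**
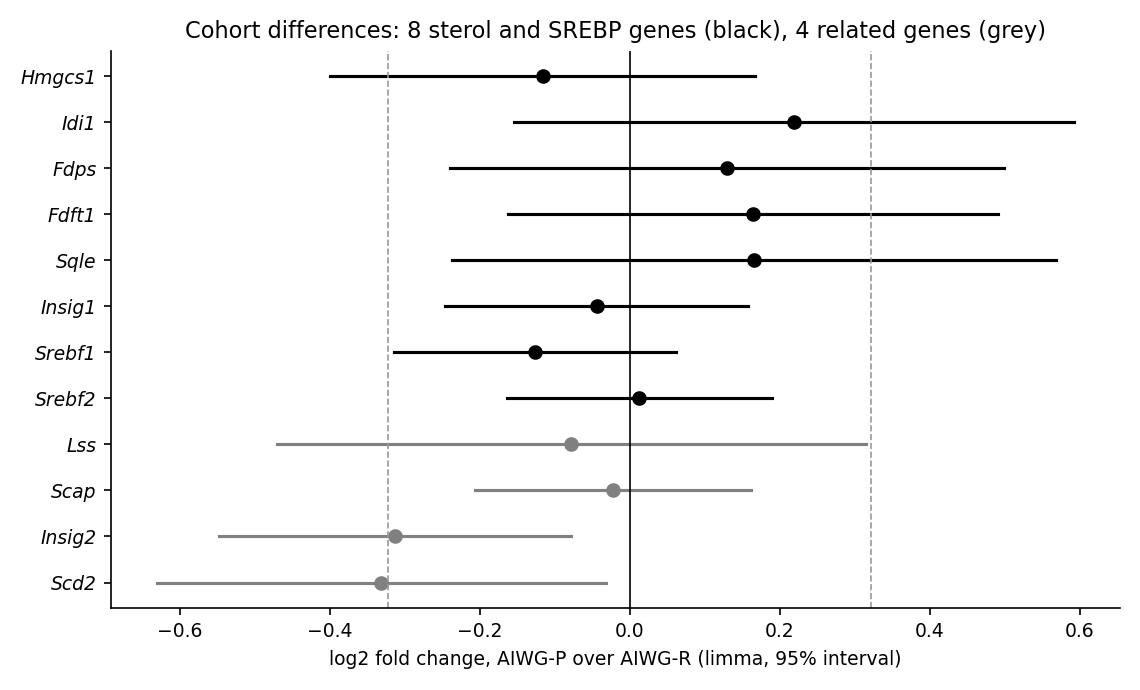
Log2 fold change of AIWG-P over AIWG-R (horizontal axis) with its 95% interval from limma for the 8 genes in black and 4 related genes in grey; dashed lines mark the fold threshold of 0.32 either way. The intervals of all 8 genes include 0, and those of *Insig2* and *Scd2* lie below it.

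The intervals bound what these mice can show. For *Srebf1*, *Srebf2* and *Insig1* they stay inside the fold threshold, for *Srebf1* narrowly (lower end -0.314 on the log2 scale, with the threshold at 0.322 either way). For the 5 enzymes they do not, and they reach 1.51 for *Idi1* and 1.48 for *Sqle*, so a difference of that size lies within the interval of those genes. *Hmgcs1* is the one enzyme whose interval passes the threshold on the side of lower values in AIWG-P (0.76) and not on the other.

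P8 stood apart from the other mice: it was the lowest mouse in 28.5% and the highest in 27.1% of all genes tested. R9 came next, at 12.3% and 13.5%, but P3 was close to it for lowest (12.1%, and 8.37% for highest). With P8 and R9 left out, 0 of the 8 genes were called, and the log2 fold changes ran from -0.13 for *Srebf1* to 0.19 for *Idi1*. P1 was lowest in 5 of the 8 genes (*Hmgcs1*, *Sqle*, *Insig1*, *Srebf1* and *Srebf2*), against 6.78% of all genes. P3 was above the median of the 10 mice in 7 of the 8, and P1 and R1 in 1. The sample labels also carry a number of unstated meaning, which is 3 for R1, P7 and P8 and 4 elsewhere. Among the 7 mice with number 4, 0 of the 8 genes were called and *Idi1* had the largest log2 fold change (0.36); the 3 mice with number 3 are too few to compare. The S numbers in the file headers run from 25 to 33 in AIWG-P and from 36 to 43 in AIWG-R, and cannot be told apart from the cohort.

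In blood, fewer cells of a type and less RNA per cell cannot be told apart. Globins made up 78.2 to 87.5% of each AIWG-P library and 75.0 to 83.2% of each AIWG-R library. Of 12 red cell markers, 10 were called higher in AIWG-P and 0 lower, with a summed value of 246281 to 409808 in AIWG-P and 166521 to 353350 in AIWG-R, and none was at 0 in any mouse. Of 7 neutrophil markers 1 was called higher, of 7 NK cell markers 1 was called lower, and no marker of monocytes, B cells, T cells, platelets or eosinophils and basophils was called. Over 64 relations of the 8 genes with 8 marker lists, Pearson's r lay between -0.57 and 0.61, and 0 had an adjusted *p* under 0.05 by Pearson's r or by Spearman's rho (100000 permutations; 0 had an unadjusted *p* under 0.05 by Pearson's r). The strongest by Pearson's r was *Idi1* with the red cell markers (r = 0.61, permutation *p* = 0.0617, adjusted *p* = 0.943; rho = 0.71, permutation *p* = 0.0274, adjusted *p* = 0.664; n = 10 mice). By rho, the platelet markers also had an unadjusted *p* under 0.05 with *Srebf2* (r = -0.53, permutation *p* = 0.114; rho = -0.71, permutation *p* = 0.0268, adjusted *p* = 0.664) and with *Hmgcs1* (r = -0.57, permutation *p* = 0.0784; rho = -0.70, permutation *p* = 0.0311, adjusted *p* = 0.664). The r of *Idi1* with the red cell markers was 0.74 without R9 and P1, the mice farthest from the median of the red cell markers, 0.52 with values as deviations from the cohort means, and 0.64 in the 7 mice with label number 4. With the red cell marker mean as a covariate 0 of the 8 genes were called. There *Hmgcs1* and *Idi1* changed sign (log2 fold change 0.028 and -0.046), and *Fdft1* was at 0.36, past the fold threshold alone.

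Levels of different genes were compared per kilobase of merged exons in GENCODE vM21, whose gene models are not those the authors used. *Srebf2* was the most abundant of the 8 in all 10 mice, with 212.6 ± 15.6 (SD, n = 10 mice) per kilobase. *Srebf1* followed with 79.0 ± 7.37, also apart from the genes on either side of it. *Fdps* (45.3 ± 9.53), *Hmgcs1* (44.8 ± 6.72) and *Insig1* (44.0 ± 3.45) could not be ordered within their spread. *Idi1* was lower on average (27.5 ± 6.31). Its highest mouse, at 39.8, passed the lowest values of *Hmgcs1* (34.7), *Fdps* (35.1) and *Insig1* (38.99). Its lowest, at 20.01, lay under the highest *Sqle* value, 23.8. *Sqle* (17.6 ± 3.81) and *Fdft1* (14.7 ± 2.36) were lowest and overlapped.

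Whether the 8 genes moved as 1 unit was not settled by tests on 10 mice, which cannot show that a relation is absent. Of their 28 pairs, 22 had a positive Pearson's r, with a median of 0.26 and a range from -0.45 (*Srebf1* and *Fdps*) to 0.76 (*Srebf2* and *Hmgcs1*). By permutation, 0 pairs had an adjusted *p* under 0.05 by Pearson's r or by Spearman's rho, and 1 had an unadjusted *p* under 0.05 by Pearson's r. That pair was *Srebf2* and *Hmgcs1*, whose promoters are printed above: r was 0.76 (permutation *p* = 0.0106, adjusted *p* = 0.296) and rho 0.84 (permutation *p* = 0.00367, adjusted *p* = 0.103; n = 10 mice). P1 was lowest in both genes and P5 was among the highest in both. The relation was 0.69 without R9 and P1, the mice farthest from the *Hmgcs1* median, 0.81 with values as deviations from the cohort means, 0.84 without P8 and R9, and 0.80 in the 7 mice with label number 4. Other pairs were closer in some of these subsets: *Sqle* and *Hmgcs1*, at 0.37 over all mice, reached 0.91 without P8 and R9, and in label number 4 *Sqle* with *Hmgcs1* (0.87), *Srebf2* with *Sqle* (0.86) and *Srebf2* with *Fdft1* (0.85) all passed *Srebf2* with *Hmgcs1*. By r with *Sqle*, *Fdft1* lay above 97.8% of genes, *Srebf2* above 97.2% and *Idi1* above 96.2%. *Hmgcs1* (87.2%), *Insig1* (85.0%), *Fdps* (80.2%) and *Srebf1* (62.3%) lay lower there. By r with *Fdps*, the other genes of the group lay above 13.5% (*Srebf1*) to 76.7% (*Sqle*). By r with *Srebf2*, *Hmgcs1* ranked 59 of 10428 genes, and by r with *Hmgcs1*, *Srebf2* ranked 586. *Srebf2* was also positive with *Sqle* (0.60), *Fdft1* (0.59), *Insig1* (0.52) and *Idi1* (0.48), and near 0 with *Fdps* (-0.05) and *Srebf1* (-0.01). *Srebf2* with *Sqle* fell to -0.07 without P1 and P5, so that value rests on those mice. The others fell less far: *Srebf2* with *Fdft1* to 0.41 without R8 and P1, and with *Insig1* to 0.32 without R2 and P1. With *Idi1* it fell to 0.20 without P5 and R8.

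**Figure D3:**
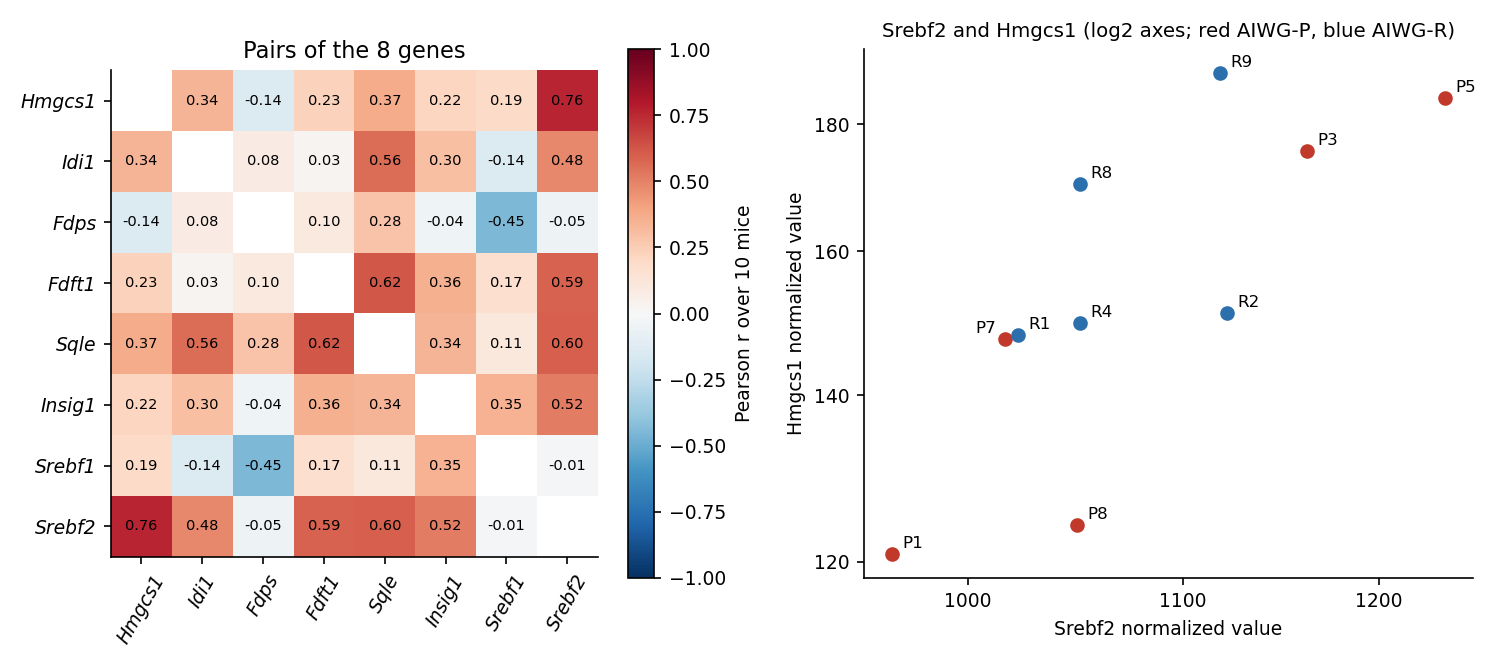
Left, Pearson's r of log2 values over 10 mice for each pair of the 8 genes, with the color scale from -1 to 1. Right, *Hmgcs1* against *Srebf2* normalized values on log2 axes, 1 point per mouse, AIWG-P in red and AIWG-R in blue; the points run from P1, lowest in both genes, to P5 and R9.

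For each gene, the 3 others most like it were named by Pearson's r over the 10 mice among 5214 genes with a mean above the median, as a description. They were *Epb41l2*, *Ccdc93* and *Fam172a* for *Hmgcs1* (r from 0.94 to 0.96), *Cab39l*, *Usp4* and *Fip1l1* for *Idi1* (0.80 to 0.81), and *Tra2b*, *Safb* and *Txndc9* for *Fdps* (0.81 to 0.88). For *Fdft1* they were *Irf1*, *Ap1m1* and *Ube2e1* (0.84 to 0.86), and for *Sqle* *Tgtp2*, *Blmh* and *Prpf19* (0.82 to 0.85). *Srebf1* was closest to *Cpsf3*, *Zc3h11a* and *Ccar2* (0.78 to 0.88), and *Srebf2* to *Rnf19a*, *Usp4* and *Fto* (0.84 to 0.93). For *Insig1* they were *Lrrc61*, *Clptm1l* and *Mbtps1* (0.76 to 0.80), and the last of these encodes the site-1 protease that cleaves SREBP in the Golgi apparatus.

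In the wider pathway 1 gene was called among 55 (1.82%), against 7.29% of all genes tested, and it was lower in AIWG-P, against 3.23% called lower. Of 15 other enzymes of mevalonate and sterol synthesis, 0 were called, 5 had a positive and 10 a negative log2 fold change, and the median was -0.02. *Lss*, which closes the ring of the first sterol, was at 48.7 ± 13.9 and 50.3 ± 6.14 (log2 fold change -0.08, exact permutation *p* = 0.667). Of 9 genes of the branches that lead from farnesyl diphosphate to other products, 0 were called and the median was -0.0044. Of 10 genes of sterol uptake, traffic and export 0 were called, and the median was -0.06. Over the 5 lists together 19 genes had a positive and 36 a negative log2 fold change, with a median of -0.05, against -0.01 and 48.4% positive over all genes tested. An unadjusted *p* under 0.05 was reached by 5 of the 55 (9.09%), against 12.8% of all genes.

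**Figure D4:**
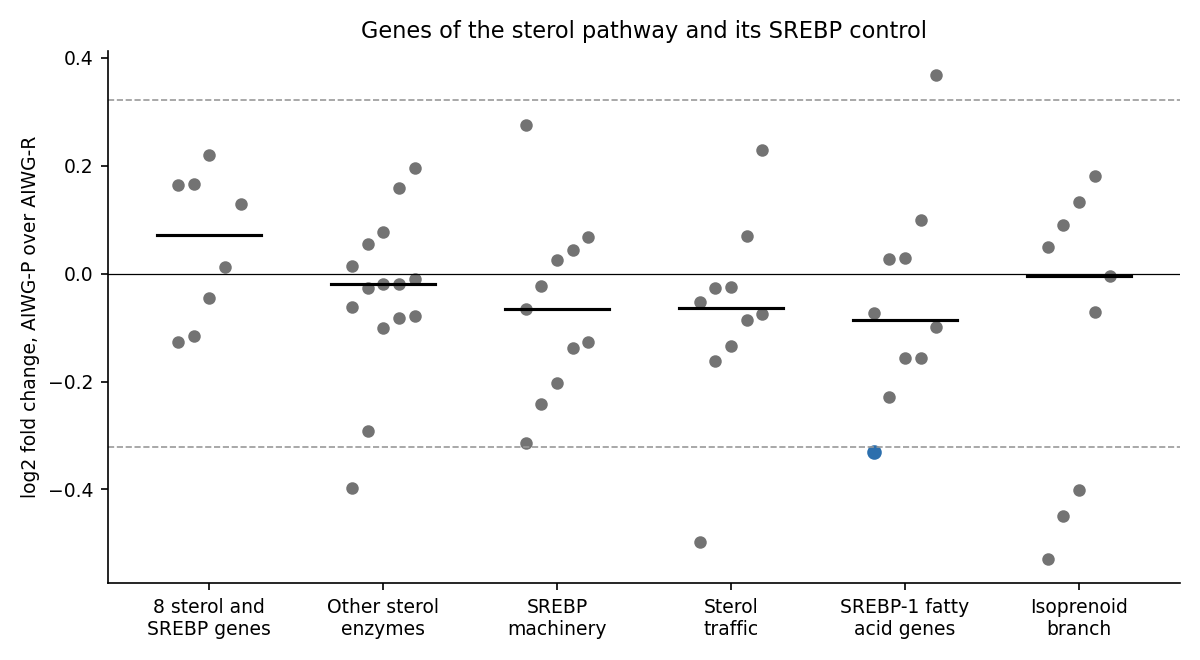
Log2 fold change of AIWG-P over AIWG-R (vertical axis) for the 8 genes and the genes of 5 pathway lists, 1 point per gene, with the median of each list as a bar and dashed lines at the fold threshold of 0.32 either way. Only *Scd2*, in blue, passed both thresholds; points beyond a dashed line in grey had a *p* above 0.05.

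The cohorts did not overlap for *Insig2*, which encodes the other INSIG protein and belongs to the list of 11 genes of the SREBP machinery. Its value was 83.4 in P1, 69.8 in P3, 93.0 in P5, 91.1 in P7 and 69.1 in P8, and 105.1 in R1, 98.3 in R2, 100.7 in R4, 103.0 in R8 and 95.3 in R9. Every AIWG-P value was under every AIWG-R value, which gives the smallest *p* that the exact permutation test allows (0.00794). The means were 81.3 ± 11.4 and 100.5 ± 3.86 (SD, n = 5 each). The log2 fold change of -0.31 (95% interval -0.55 to -0.078; limma *p* = 0.0129, adjusted *p* = 0.341, beside the exact *p* above) stopped just short of the fold threshold (-0.32). Of the 55 pathway genes this was the 1 whose cohorts did not overlap (1.82%), against 2.55% of all genes. *Insig2* passed both thresholds without P1, P5, P7 or R9 (log2 fold change -0.33 to -0.36). It also did so, at -0.46, with values rescaled to equal sums over genes other than globins, where the median of all genes was -0.15. With the red cell marker mean as a covariate its log2 fold change was -0.31, with a limma *p* of 0.0717. In the same list, *Scap*, the escort of SREBP, was at 316.9 ± 27.6 and 321.6 ± 22.8 (log2 fold change -0.02, exact permutation *p* = 0.754), and 0 of 11 were called. Whether *Insig2* differed more than *Insig1* was not tested.

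**Figure D5:**
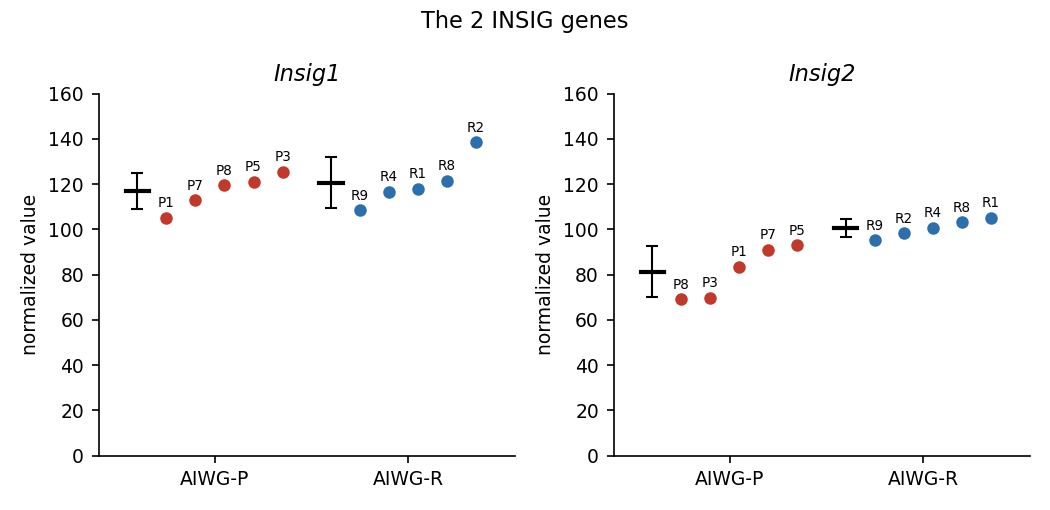
Normalized values of *Insig1* and *Insig2* (vertical axes, from 0) in each mouse, AIWG-P in red and AIWG-R in blue, with mean and SD of 5 mice to the left of the points. The cohorts overlap for *Insig1*, while for *Insig2* the highest AIWG-P mouse, P5 at 93.0, lies below the lowest AIWG-R mouse, R9 at 95.3.

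Among 10 fatty acid synthesis genes known as SREBP-1 targets, 1 was called lower in AIWG-P, 0 higher, and the median log2 fold change was -0.09. The called gene was *Scd2*, a fatty acid desaturase gene, which may share reads with its close relative *Scd1*. Its values were 330.0 in P1, 498.6 in P3, 386.0 in P5, 338.5 in P7 and 273.4 in P8, and 500.0 in R1, 492.6 in R2, 385.7 in R4, 439.3 in R8 and 445.2 in R9. P3 stood with the highest AIWG-R mice and R4 with the AIWG-P mice, so the cohorts overlapped. The log2 fold change was -0.33 (limma *p* = 0.0328, adjusted *p* = 0.365; exact permutation *p* = 0.0714). *Scd2* was no longer called when P8 (log2 fold change -0.23) or any of P1, P7, R1 and R2 (-0.29 to -0.31) was left out, nor without P8 and R9 together (-0.24). Quantile normalization (-0.31) and the label number used as covariate (-0.30) also ended the call. It was not called in the 7 mice with label number 4 (-0.14), nor with the red cell marker mean as a covariate (-0.37).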

How the data were processed

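RNA of whole blood from 5 AIWG-P and 5 AIWG-R mice was sequenced. Per the study's methods, Bowtie2 was used for mapping to mouse transcripts, RSEM for counting and limma for the cohort comparison. The submitters' processing notes name these tools too, and mm9 as the build. The table deposited by the authors holds a normalized signal per gene and mouse. Its scaling is not stated. It also holds the authors' means per cohort, signed fold change, log2 ratio, p and q values, none of which were used, and 0 columns of values per mouse were left out. Summed values were 22353520 to 45642066 per mouse in AIWG-P and 16909806 to 30472510 in AIWG-R. Medians were much closer, at 142.9 to 145.5 per mouse in AIWG-P and 144.3 to 145.7 in AIWG-R, so the values are not scaled to an equal total. All values of a mouse lie within 0.02 of a whole multiple of 1 step, and these multiples sum to 23810098 to 32293924 per mouse, but they were not taken as read counts, so count models were left out.

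Genes were matched to RefSeq symbols by Entrez ID (10368 of 10431). Values above 1 in at least 5 mice were required, which removed 2 genes, and log2(value + 1), with 1 as the pseudocount, was fitted with limma 3.58.1 with a mean-variance trend (R 4.3.3), with no covariate. Fold changes are on that scale. *P* values were adjusted by the method of Benjamini and Hochberg over all genes tested, and over the relations of a family for correlations. Intervals are 95% intervals from limma. For a single gene, an exact two-sided permutation test ran over 252 assignments, whose smallest *p* is 0.00794, and correlations by two-sided tests with 100000 permutations. The labels give each mouse its own letter and number and do not say how the samples were taken. Per the study, the blood came from individual mice that were housed singly, so *p* values measure the spread between these mice. The fit was checked on simulated data. The named genes were the 8 genes, *Scap*, *Insig2* and *Lss*, every called gene of the 5 pathway lists, and the 3 genes most like each of the 8, and 2 further genes of this rule are not reported here. The 8 genes and all lists were chosen with earlier results of these data known. Alternatives were other scalings, pseudocounts, filters and covariates, each mouse left out, and P8 and R9 left out together.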

Additional observations from a re-analysis of the deposited data

Results flagged for a closer look

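*Fdft1* had 1 mouse far from the others of its cohort. P1 was at 42.3, and its gap to the next AIWG-P mouse was 0.773 of the range of the cohort, above the critical value of 0.71 for 5 samples. The lowest and highest mouse of each of 16 sets of 5 values were examined in this way, and chance flags about 1 set in 20.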

How the results depend on the processing

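The 2 count-based alternatives planned (edgeR and DESeq2 on reads recovered from the steps) were not run, since the deposited values could not be shown to be whole reads. Of the 8 genes, 0 passed both thresholds in any scaling, pseudocount, filter or covariate tried, and 0 to 1 when each mouse was left out (*Sqle* without P1, *Idi1* without R8). The filter on values above 50 in at least 5 mice removed *Sqle*, so 7 of the 8 were tested there. By the exact permutation test 0 to 1 of the 8 genes had a *p* under 0.05 without 1 mouse, and 1 with globins left out of the sums used for scaling. The direction changed for *Hmgcs1* without P8 and R9 (0.0047) and with the red cell covariate (0.028), for *Idi1* with that covariate (-0.046), and for *Fdps* with globins left out (-0.012). *Srebf2* changed to -0.013 under quantile normalization and -0.13 with globins left out, and ran from -0.035 to 0.053 without 1 mouse. *Insig1* ran from -0.081 to 0.0063, *Scap* from -0.065 to 0.022 and *Lss* from -0.218 to 0.016 without 1 mouse. *Scap* was 0.0023 under quantile normalization and 0.053 in label number 4 alone. *Lss* was 0.048 without P8 and R9, 0.087 in label number 4 alone and 0.028 once the label number was a covariate. The causes were not tested. With globins left out, the values were rescaled to equal sums over the other genes. This brought the median log2 fold change of all genes from -0.0075 to -0.15. It called 162 genes higher and 1212 lower in AIWG-P, against 423 and 337, so changes there are read relative to that shift.

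The number of called genes among the other sterol enzymes was 1 with globins left out and 1 without P8 and R9 (*Mvk* in both). In the SREBP machinery it was 2 with globins left out, 2 with no fold threshold, and 0 to 1 without 1 mouse. In sterol traffic it was 1 with globins left out, 1 with no fold threshold, and 0 to 1 without 1 mouse. Among fatty acid genes it was 0 under quantile normalization, without P8 and R9, in label number 4 alone and with either covariate, 2 with globins left out or no fold threshold, and 0 to 1 without 1 mouse. Without P1 the 1 called gene was *Fads1*, higher in AIWG-P, and not *Scd2*. In the isoprenoid branch it was 1 with globins left out, 1 with no mean-variance trend, and 0 to 2 without 1 mouse. Other sterol enzymes stayed at 0 without any 1 mouse, and both counts of correlated relations stayed at 0 under each alternative.

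The mouse numbers 1 and 8 occur in both cohorts, but nothing says that they pair mice, and deviations from the cohort means correlated by 0.12 (P1, R1) and 0.33 (P8, R8) over all genes. A fit with this number as a replicate block takes its cohort difference from P1, R1, P8 and R8 alone, since no other number is in both cohorts. It left 1 residual degree of freedom, so it is no check over all 10 mice. It called 0 of the 8 genes, against 17.0% of all genes (770 higher and 1006 lower in AIWG-P). With the block, 2 SREBP machinery, 3 sterol traffic, 3 fatty acid and 2 isoprenoid genes were called, and the direction changed for *Sqle* (-0.068), *Idi1* (-0.18), *Srebf2* (-0.041) and *Lss* (0.16).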
